A study of Mus musculus with 8 samples.

Results

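Oxidative phosphorylation is carried out by 5 multi-subunit complexes of the inner mitochondrial membrane. Complexes I to IV pass electrons from NADH and succinate to oxygen and, at I, III and IV, pump protons, and complex V, the ATP synthase, uses the returning protons to make ATP. In brown adipose tissue (BAT) the protons also return through Ucp1, so that respiration yields heat, and this tissue is known for a full respiratory chain beside little ATP synthase. Most subunits are encoded in the nucleus, and the rest in the mitochondrial genome. The nuclear genes were taken here by symbol (Nduf without the Ndufaf assembly factors, Sdha to Sdhd, Uqcr, Cyc1, Cox4 to Cox8 with a following letter a to c, and Atp5), with pseudogene names that contain -ps left out. This gave 84 of the 33641 genes in the deposited tables, with 38 in complex I, 4 in complex II, 9 in complex III, 16 in complex IV and 17 in complex V. The pattern misses Cox4i1, Cox4i2 and cytochrome c, which were taken up in a separate list. It assigns the complex by symbol alone and places Ndufa4 with complex I, although its product is now counted with complex IV. Whether every other product is a subunit of the complex assigned was not checked.

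BAT was sampled from the interscapular depot of C57BL/6 mice aged 28 weeks, and the question was which transcripts depend on HuR (Elavl1), an RNA-binding protein. The libraries labelled HuR KO came from mice with a floxed HuR gene and Cre recombinase driven by adiponectin (Adipo-HuR-/-), so that only fat cells would lose the gene, whereas other cells of the tissue keep it. The libraries labelled WT came from littermates with wild-type alleles and Cre, with 2 floxed alleles and no Cre, or with 1 floxed allele and no Cre. There were 3 libraries labelled WT (A7, A8 and A12) and 5 labelled HuR KO (A24, A25, A26, A29 and A31), 1 for each animal as far as the titles say. Values of single libraries are listed in this order, and means with SD over these 3 and 5 libraries. The paper's legend gives the group sizes the other way round, and the groups below follow the labels. Which diet and which control genotype each animal had is not given in the labels.

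The authors deposited estimated counts for 105129 transcripts in each library, and these were summed for each gene. Totals were 60622522, 51751002 and 50673814 under the WT label, and 18264754, 17558090, 67498055, 50893173 and 58727739 under the HuR KO label. A24 and A25, the smallest libraries, carried the same label. Levels are given as CPM after TMM normalization, which assumes that most genes do not differ between libraries. Differences are given as log2 fold changes, positive where the level was higher in the libraries labelled HuR KO. The threshold is an adjusted p of 0.05 or less from the quasi-likelihood test of edgeR together with a 1.5-fold difference or more. Elavl1 itself (chr8:4285382-4325413, minus strand, GRCm38) stood at 50.6, 48.0 and 49.2 CPM under the WT label, and at 61.9, 47.3, 43.4, 61.3 and 61.2 under the HuR KO label. The gene total was thus not lower under the HuR KO label and does not check the labels, on which every direction below rests. The paper reports that most of its HuR-dependent genes were lower in Adipo-HuR-/- mice. Here 69 of the 105 genes past the threshold were lower under the HuR KO label. Both rest on these libraries, so this does not show which animals lost HuR.

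Some libraries stood apart within their group. The 26 contractile genes of skeletal muscle summed to 4715, 2995 and 61.3 CPM under the WT label, and to 56.5, 40.9, 32.7, 60.2 and 509 under the HuR KO label. Their most abundant gene, Myh4, a fast myosin heavy chain, stood at 1048 CPM in A7, 457 in A8 and 106 in A31, and at 0 in A25, A26 and A29. All 26 were detected in A7, A8 and A31, and between 5 and 10 of them were at 0 in each of the other libraries, among them Pvalb in A12, A24, A25, A26 and A29. The 12 brown adipocyte genes, all detected everywhere and led by Ucp1, summed to 7373, 15985 and 13113 CPM under the WT label. In the libraries labelled HuR KO they summed to 14666, 6996, 10928, 10834 and 14031 CPM. The groups overlapped in both lists, and also in the summed adipocyte genes, from 9700 CPM in A25 to 17732 in A8 and led by Fabp4. Endothelial genes, led by Cdh5, summed to between 341 CPM in A24 and 574 in A29, macrophage genes, led by Lyz2, to between 30.3 in A8 and 112 in A12, fibroblast genes, led by Col3a1, to between 121 in A26 and 500 in A12, and red blood cell genes, led by Hbb-bs, to between 365 in A26 and 1155 in A24. In whole tissue, fewer cells of a type and less RNA per cell cannot be told apart.

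No subunit gene was past the threshold. Of the 84 genes, 82 had enough counts for a test, and 0 of them were called by edgeR's quasi-likelihood test, where 0.707% of all 14851 genes tested (105 genes) were called. At an unadjusted p under 0.05 there were 7 of 82, against 17.0% of all genes. DESeq2's Wald test called 2 of 82, against 5.51% of all genes, and limma voom called 2, against 1.06%. In both tests the 2 genes were Atp5s, lower under the HuR KO label, and Cox6b2, higher under it. The number of genes called overall rested on single libraries, with 10 to 17 left without A7, A25, A26, A29 or A31 and 190 without A12. The libraries of the 2 labels did not overlap for 5 of the 82 subunit genes, against 11.5% of all genes.

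The typical subunit gene differed little between the labels. The median log2 fold change was 0.07 over the 82 genes, against 0.001 over all genes, and 76 of the 82 lay within 0.5 of 0 on the log2 scale. It was 0.07 in complex I, 0.08 in complex II, 0.21 in complex III, 0.02 in complex IV and 0.01 in complex V. With 1 library left out the medians of complexes I to V ranged from −0.10 to 0.42, −0.02 to 0.36, 0.04 to 0.50, −0.17 to 0.52 and −0.11 to 0.35. Among the 82, 53 were higher and 29 lower under the HuR KO label, and their standard errors had a median of 0.268. The number higher was 75 with library totals and 74 without A8, but 29 without A7 or without A24. It was 22 without A24 and A25. The median over the members had no fixed direction, since it was −0.10 without A7 and −0.07 without A12 or without A24, but 0.41 without A8. With library totals in place of TMM the median of all genes moved to 0.23 and that of the members to 0.35.

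**Figure D1:**
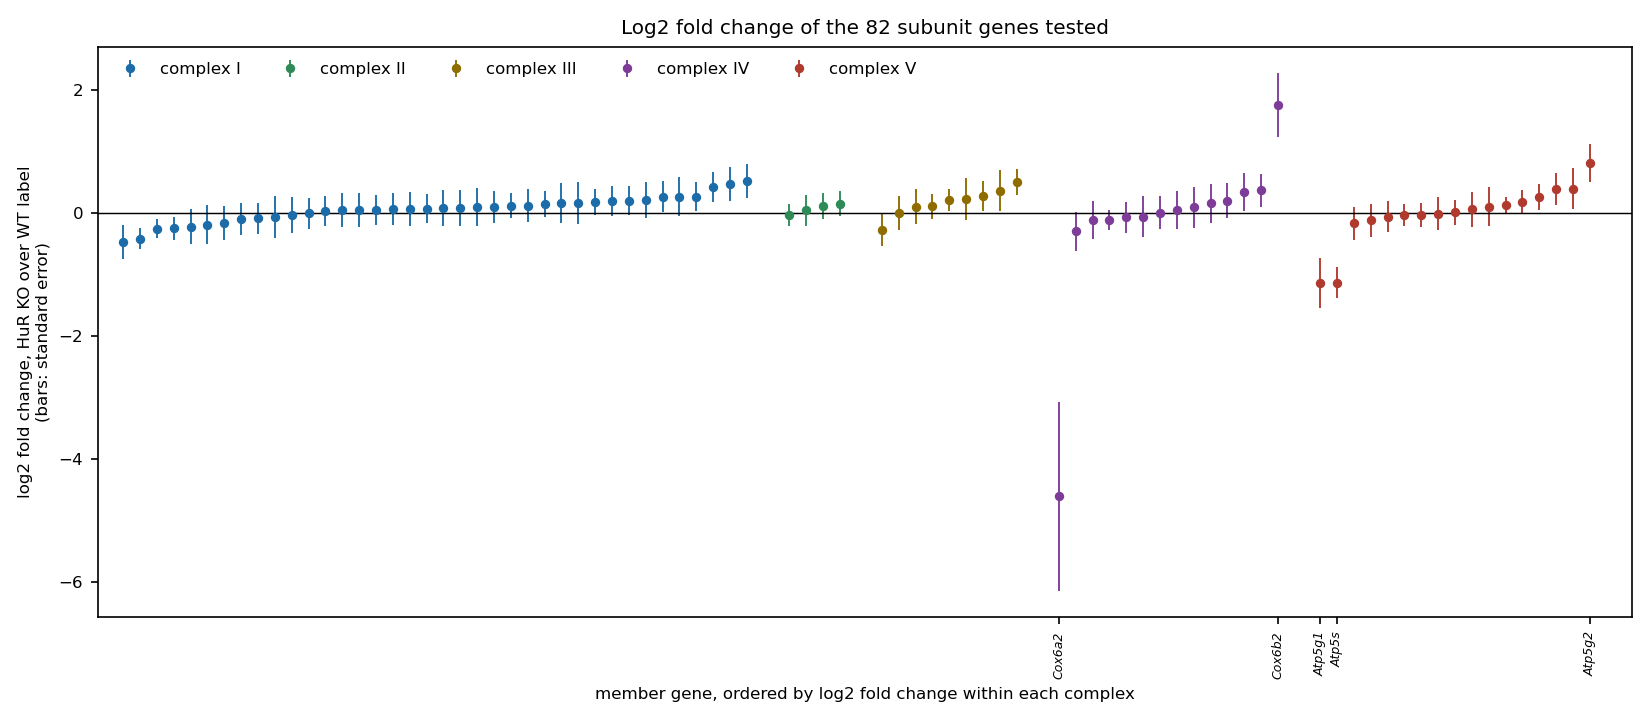
Log2 fold change (libraries labelled HuR KO over WT, vertical axis) of each of the 82 subunit genes tested, grouped by complex, with bars for the standard error and names under the 5 farthest from 0. The points of 76 genes lie within 0.5 of 0, and Cox6a2 at −4.62, Cox6b2 at 1.76, Atp5g1 at −1.14, Atp5s at −1.14 and Atp5g2 at 0.81 lie farthest out.

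Within each label the subunit genes moved together from library to library. A8 (WT) held the highest level of 46 of the 82 genes and A24 (HuR KO) that of 34, whereas A7 (WT) held the lowest of 37, A12 (WT) of 25 and A26 (HuR KO) of 12. The highest and the lowest libraries thus included both labels. Subunit genes under 800 bases with at least 50 CPM (41 genes) deviated from their mean over the 8 libraries by medians of −0.44, 0.60 and −0.31 on the log2 scale in the libraries labelled WT. In the libraries labelled HuR KO the medians were 0.54, 0.05, −0.30, −0.02 and −0.08. From A7 to A8, which share a label, the level of these 41 genes differed by 1.21- to 2.94-fold, with a median of 2.08. For the 23 subunit genes of 800 to 1600 bases with at least 50 CPM the median from A7 to A8 was 1.82-fold. For the 11 over 1600 bases, which include Sdha and Atp5b, it was 1.21-fold. In A12 the class of 800 to 1600 bases deviated more (−0.42) than the short one.

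Other genes under 800 bases did likewise. The 159 other genes under 800 bases at 50 CPM or more deviated by a median of −0.40 in A7, 0.53 in A8, −0.31 in A12, 0.48 in A24 and −0.29 in A26, close to the subunit genes. Across genes at 50 CPM or more, Spearman's correlation between transcript length and the deviation was −0.59 in A8 and −0.47 in A24 over 75 subunit genes. Over 2288 other genes, which come from the same libraries and are not independent replicates, it was −0.62 and −0.74. In A7 and A26 it was positive, at 0.45 and 0.63 in the subunit genes and 0.48 and 0.52 in the others. Of the family, 54.8% of the genes have a mean transcript length under 800 bases, against 5.23% of all genes tested, with a median of 750 against 2734 bases. Between 800 and 1600 bases, also at 50 CPM or more, the subunit genes spread more than other genes. The medians were −0.44 against −0.24 in A7, 0.50 against 0.37 in A8 and −0.42 against −0.18 in A12. Over 1600 bases the 11 subunit genes did not follow the 1714 other genes at 50 CPM or more. The medians there were −0.14 against 0.03 in A7, 0.22 against 0.04 in A8, −0.11 against 0.10 in A12 and 0.21 against −0.03 in A24. In A12 the correlation with length was 0.17 in the subunit genes and 0.45 in the others. Once each library's trend on transcript length was removed, an alternative chosen after seeing the data, the median log2 fold change of the members was 0.02. What made the family, or short transcripts, differ between libraries was not tested.

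**Figure D2:**
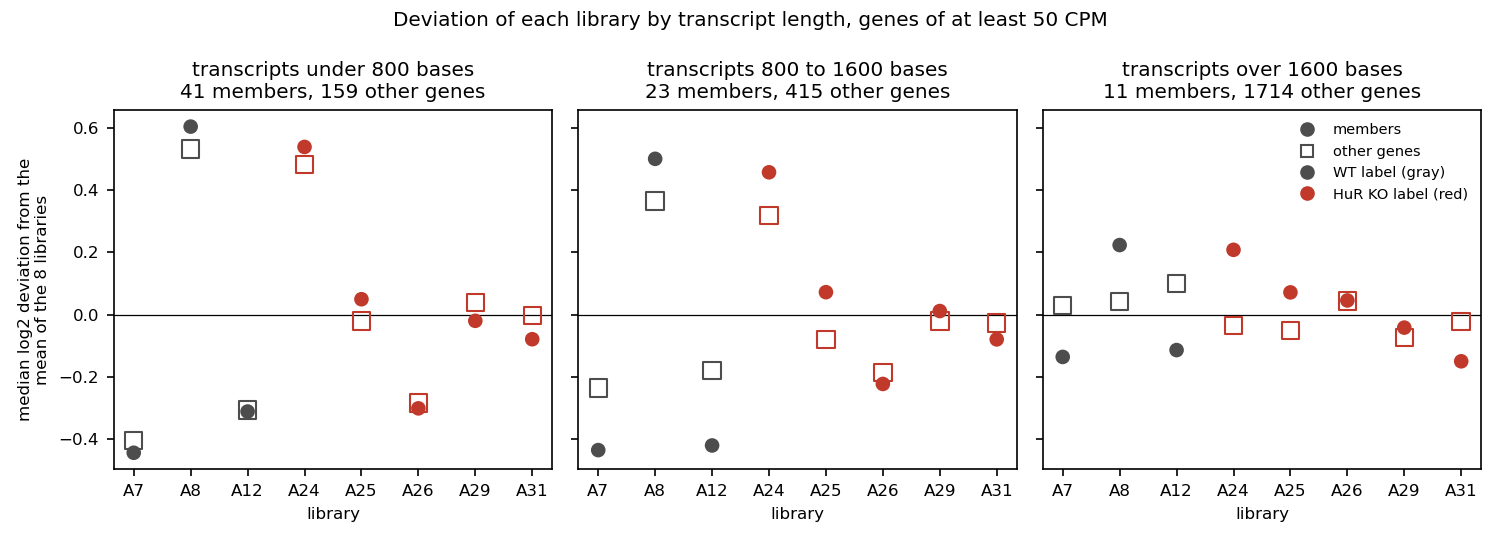
Median log2 deviation of each library from the mean of the 8 libraries (vertical axis), for subunit genes (filled circles) and other genes (open squares) of at least 50 CPM, in 3 classes of transcript length, with WT labels in gray and HuR KO labels in red. Under 800 bases the subunit genes lie at 0.60 in A8 and 0.54 in A24 and at −0.44 in A7, and the squares of other genes lie near the circles.

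Complex I takes electrons from NADH, which bind at the flavin of Ndufv1 and pass along iron-sulphur clusters, many of them in Ndufs1, to ubiquinone. Ndufs1 stood at 679 ± 29.1 CPM under the WT label against 568 ± 59.9 under the HuR KO label, without overlap (log2 fold change −0.26, edgeR adjusted p = 0.438). Exons of Ino80dos overlap 489 bases of Ndufs1 on the other strand, and whether strand was used in counting is not given in the sources used here. Ndufs7 had the largest positive value in the complex, with 180 ± 64.3 CPM against 257 ± 74.5, and was highest in A24 and A25, at 370 and 295 CPM. These groups overlapped (log2 fold change 0.51, edgeR adjusted p = 0.382), and the log2 fold change ranged from 0.33 to 0.85 with 1 library left out. Ndufa1, a small accessory subunit, had the largest negative value (−0.48, edgeR adjusted p = 0.415), and its 481 CPM in A8 stood far above the 175 to 290 CPM of the other 7 libraries. With 1 library left out its value ranged from −0.71 to −0.0076, the latter without A8. Ndufv1 was level, at 702 ± 57.7 CPM and 760 ± 155 CPM.

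Complex II, succinate dehydrogenase, belongs also to the citric acid cycle and has no mitochondrially encoded subunit. Its flavoprotein Sdha was steady over the libraries, from 1684 CPM in A29 to 2272 in A25, and its log2 fold change was −0.03 (standard error 0.181). The iron-sulphur subunit Sdhb spread more widely, from 782 CPM in A7 to 1518 in A8, within the WT label alone (log2 fold change 0.04). The membrane anchor Sdhd had the largest positive value of the complex, 0.15.

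In complex III, which passes electrons from ubiquinol to cytochrome c, 8 of 9 genes had positive values, but 5 of 9 without A24. The median of 0.21 was 0.04 without A7 and 0.50 without A8. Cyc1, the haem-bearing cytochrome c1, stood at 679, 875 and 570 CPM under the WT label, and at 1248, 1119, 944, 874 and 817 under the HuR KO label. A8 lay between A29 and A26, so that the groups overlapped, and the log2 fold change of 0.50 (standard error 0.215) had an adjusted p of 0.272 in edgeR's test. The Rieske protein Uqcrfs1 (0.27) and the core protein Uqcrc1 (0.21) had smaller values, neither past the threshold. With 1 library left out Uqcrfs1 ranged from 0.12 to 0.55 and Uqcrc1 from 0.11 to 0.34, beside 0.36 to 0.69 for Cyc1. Uqcrh, the hinge protein, was the exception in direction at −0.27, and its 1433 CPM in A8 was the highest of any library, with 598 to 970 CPM in the others.

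Complex IV reduces oxygen, and several of its nuclear subunits come in tissue forms. Cox6a2, the form of heart and skeletal muscle, stood at 13.8 CPM in A7 and 15.1 in A8 and was not detected in A12, where a count of 0 allows up to 0.0627 CPM. Under the HuR KO label it reached 1.59 CPM in A31 and 0.0593 in A26 and was not detected in A24, A25 and A29. The libraries with Cox6a2 above 1 CPM were thus A7, A8 and A31, the same 3 with contractile genes above 500 CPM in sum. Its log2 fold change of −4.62 (edgeR adjusted p = 0.164) turned to 0.51 with the score of the contractile genes as a covariate. Without A7, A8 and A31 too few counts remained for a test. The part that muscle in the samples has in this value was not tested beyond these fits. Its ubiquitous counterpart Cox6a1 stood at 896 ± 319 CPM and 1027 ± 299 CPM, and the log2 ratio of the 2 differed by −4.68 between the labels (exact permutation p = 0.179, two-sided), by −2.82 without A7 and by −8.04 without A12. With 2 in place of 0.5 added to each count it differed by −4.07.

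Cox7a1 and Cox8b are muscle-type forms that are also typical of brown fat. Cox8b stood at 549 CPM in A7 and 1526 in A8, the libraries with the most contractile RNA, and at 711 in A12 and 1268 in A24, with little. Cox7a1 stood at 406 CPM in A7, 968 in A8, 391 in A12 and 802 in A24. The log2 fold change of Cox8b, −0.06, became 0.10 with the score of the contractile genes as a covariate and 0.34 without A7, A8 and A31. The part of muscle in these levels was not tested beyond such fits. Over the 8 libraries the log2 ratio of Cox7a1 to Cox7a2 lay between 0.04 in A12 and 0.81 in A29, and that of Cox8b to Cox8a between 0.09 in A25 and 0.84 in A8. Neither ratio differed between the labels beyond its spread, with differences of 0.18 (exact permutation p = 0.429, two-sided) and −0.28 (exact permutation p = 0.179, two-sided). With 1 library left out these ranged from 0.0074 to 0.31 and from −0.46 to −0.14. With 56 splits of 3 against 5, the smallest p of this test is 0.0357, and adjusted over the 7 paralog ratios compared it is 0.125 at the least found here. The catalytic core's nuclear partners Cox5a (0.36) and Cox5b (−0.30) lay on different sides of 0, neither past the threshold. With 1 library left out Cox5a ranged from 0.16 to 0.60. Cox5b ranged from −0.50 to 0.11, the latter without A8, where both were above 0.

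Cox6b2, the testis form of subunit 6b, was higher under the HuR KO label at a very low level. It stood at 0.567, 3.11 and 0.857 CPM under the WT label, and at 7.39, 3.65, 5.50, 4.15 and 4.64 under the HuR KO label. No library labelled WT reached the lowest of those labelled HuR KO, and A8 came closest. The log2 fold change was 1.76 (standard error 0.521), and the adjusted p in edgeR's test was above the threshold (0.127). The adjusted p was 0.0101 in DESeq2's Wald test, 0.0374 in limma voom and 0.0165 in edgeR's test without A8, where the log2 fold change was 2.84, and over all alternatives it ran from 0.0101 to 0.443. Its ratio to Cox6b1, the common form, differed by 2.05 on the log2 scale (exact permutation p = 0.0357, two-sided, the smallest possible, and 0.125 after adjustment). Cox6b1 itself was at about the same level under both labels, at 999 ± 373 CPM and 998 ± 242 CPM, and the main transcript of Cox6b2 shared no 31-base stretch with any other gene's transcript. The gene lies at chr7:4751792-4753094 on the minus strand, with 9 transcripts in the tables. The other testis forms, Cox7b2 and Cox8c, did not pass the filter: Cox7b2 had 0.0506 CPM in A8 and none elsewhere, and Cox8c was at 0 in all 8 libraries, which allows at most 0.169 CPM, the limit in A24.

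Complex V joins a catalytic head, in which Atp5a1 and Atp5b alternate, to a membrane ring of c subunits. Atp5a1 and Atp5b were the most abundant subunit transcripts by count and together held 19.8% ± 3.87 of the counts of the whole family under the WT label and 18.3% ± 1.87 under the HuR KO label. Neither was past the threshold, with a log2 fold change of −0.04 for both Atp5a1 and Atp5b. Atp5s, also known as factor B or Dmac2l, was named after its values were seen, as it had the lowest p of the family. It stood at 5.08, 8.48 and 7.71 CPM under the WT label, and at 4.74, 2.80, 3.30, 2.80 and 2.58 under the HuR KO label. The groups did not overlap, though A24 came close to A7. The log2 fold change was −1.14 (standard error 0.257) with an adjusted p of 0.0747 in edgeR's test. It was 0.00212 in DESeq2's Wald test, 0.0433 in limma voom, 0.0373 with the trend on transcript length removed and 0.0480 without A24 (log2 fold change −1.31), and it ran from 0.00212 to 0.299 over all alternatives. Atp5s has 1 transcript in the tables (chr12:69724950-69744660, plus strand), and its exons overlap those of no other gene.

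The c ring is encoded by Atp5g1, Atp5g2 and Atp5g3, whose products differ in the import sequence that is cut off and yield the same mature subunit. Low expression of Atp5g1 is known as a mark of brown fat. Atp5g1 stood at 11.95, 13.8 and 3.20 CPM under the WT label, and at 6.82, 3.80, 3.07, 4.26 and 4.01 under the HuR KO label. Its 2 highest libraries were the 2 with the most contractile RNA, and A12 lay among the libraries labelled HuR KO. The log2 fold change of −1.14 (edgeR adjusted p = 0.192) was −1.56 without A12, with an adjusted p of 0.0329 in edgeR's test, and 0.48 without A7, A8 and A31, so that its direction rested on A7 and A8. Over all alternatives its adjusted p ran from 0.0329 to 0.918. Its log2 ratio to Atp5g3, the most abundant of the 3, differed by −1.17 (exact permutation p = 0.143, two-sided), and by −0.05 without A7, A8 and A31.

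Atp5g2 showed the opposite, and here the count is uncertain. Under the WT label it reached 9.93 CPM in A7 and 5.60 in A12 and was highest in A8, though still below the 12.2 CPM of A26, the lowest of the other label, of which A24 had 26.4 CPM, without overlap (log2 fold change 0.81, edgeR adjusted p = 0.222). The log2 ratio of Atp5g1 to Atp5g2 was −0.11 ± 0.601 under the WT label and −1.86 ± 0.0976 under the HuR KO label (exact permutation p = 0.0357, two-sided, and 0.125 after adjustment). The difference of −1.75 was −1.08 without A7, A8 and A31. However, 87.7% of the 31-base stretches in the main transcript of Atp5g2 also occur in Gm10175, a transcribed processed copy at chr7:23946646-23947290 on the minus strand, to which the deposited counts assign far more. Gm10175 held 133, 177 and 122 CPM under the WT label, and 238, 196, 165, 175 and 166 under the HuR KO label. Of the sum of both, 5.90% ± 1.34 and 7.74% ± 1.41 was assigned to Atp5g2. The sum overlapped between the labels, with 128 CPM in A12 to 189 in A8 against 177 in A26 to 265 in A24 (exact permutation p = 0.107, two-sided). Against this sum the difference in the log2 ratio of Atp5g1 was −1.35 (exact permutation p = 0.0714, two-sided). This ratio was −3.58 in A7 and −3.78 in A8. In A12 it was −5.31, among the −5.85 to −5.27 of the libraries labelled HuR KO. How much of the sum belongs to the gene and how much to its copy cannot be told from the deposited counts.

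The 3 c-subunit genes differ in sequence even where they encode the same mature subunit. Over the last 225 coding bases, which hold the mature subunit, Atp5g1 and Atp5g2 share 191 bases (84.9%), Atp5g1 and Atp5g3 share 180, and Atp5g2 and Atp5g3 share 177. The first 90 of these bases are given from the GENCODE M21 transcripts of the genes at chr11:96068852-96075670, chr15:102662864-102672352 and chr2:73908447-73911326, each on the minus strand of GRCm38, with capitals where a base differs from at least 1 of the other 2 genes.
Atp5g1: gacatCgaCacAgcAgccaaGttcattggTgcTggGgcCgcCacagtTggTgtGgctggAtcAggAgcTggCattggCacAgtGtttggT
Atp5g2: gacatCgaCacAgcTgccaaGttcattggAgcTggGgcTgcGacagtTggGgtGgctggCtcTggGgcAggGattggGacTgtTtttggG
Atp5g3: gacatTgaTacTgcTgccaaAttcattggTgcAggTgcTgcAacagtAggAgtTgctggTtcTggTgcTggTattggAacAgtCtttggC

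Copies were less of a concern for most of the family. The median gene shared 2.13% of the 31-base stretches of its main transcript with other genes, 33 of 84 shared none, and 7 shared over 50%. Among the latter, Atp5l had a copy, Gm10221, at 108 ± 49.6 CPM and 120 ± 51.1 CPM, beside 545 ± 233 CPM and 541 ± 95.9 CPM for the gene itself. Cox7c had Gm12338, with 100 ± 64.4 CPM and 81.9 ± 38.6 CPM.

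**Figure D3:**
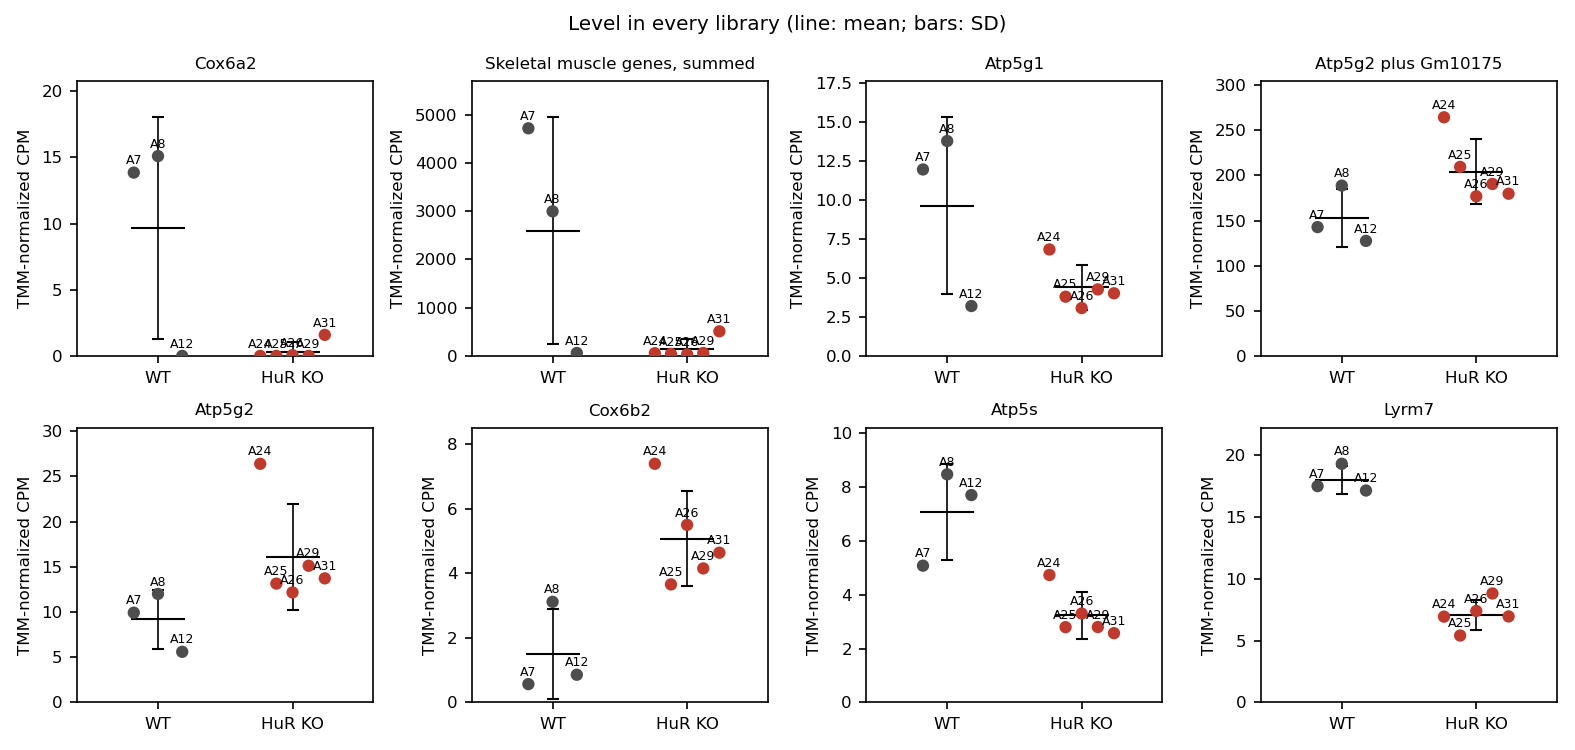
TMM-normalized CPM in each library (points, WT labels in gray and HuR KO labels in red), with the mean (line) and SD (bars) of each label, for 5 subunit genes, the summed contractile genes of skeletal muscle, Atp5g2 with its copy Gm10175, and the assembly factor Lyrm7. Cox6a2 and Atp5g1 are highest in A7 and A8, as are the contractile genes, and Lyrm7 lies between 17.1 and 19.3 CPM under the WT label and between 5.41 and 8.81 under the HuR KO label.

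Levels of different genes can be compared per length, as TPM from the annotated lengths, which do not correct for the length trend above. Under the WT label Atp5b was highest in complex V at 4517 TPM and Atp5g3 lowest among the genes with at least 50 TPM, at 208. The 3 c-subunit genes with Gm10175 reached 0.115 ± 0.0211 of the TPM of Atp5b under the WT label and 0.147 ± 0.00988 under the HuR KO label, with overlapping libraries, although the c ring holds more copies of its subunit than the head holds of Atp5b. Without the copy these values were 0.0532 and 0.0629. In complex IV, Cox8b led at 3018 TPM under the WT label and 3555 under the HuR KO label, and Cox7a2l, a factor of supercomplexes, was lowest of those with at least 50 TPM, at 210 and 222. With the same limit, complex I ran from Ndufb4 at 110 TPM to Ndufa4 at 1397 under the WT label, with a median of 472, and complexes II and III spanned 4.57- and 4.10-fold. Ndufa4l2, a hypoxia-linked relative of Ndufa4, stood at only 5.23 TPM under the WT label, and its ratio to Ndufa4 differed by 0.57 on the log2 scale (exact permutation p = 0.321, two-sided), by 0.14 without A8 and by 1.09 without A7.

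As a share of each library, the 84 genes took 3.71% of all counts in A7, 4.55% in A8 and 3.61% in A12, and 5.73%, 5.60%, 4.04%, 4.42% and 4.63% under the HuR KO label. The largest shares were those of the smallest libraries, A24 and A25. Mitochondrially encoded genes, which took from 14.3% of the counts in A25 to 33.1% in A8, bear on this share. Without them in the denominator the means were 5.41% ± 1.23 and 6.25% ± 0.708, with A8, at 6.80%, above 4 of the 5 libraries labelled HuR KO. Complexes II and V also overlapped between the labels with this denominator.

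In 2 genes the division of counts between transcripts was compared. Ndufv3 is a complex I subunit with a long form that includes an extra exon. It had 53.7% ± 5.58 of its counts on the long transcript (1582 bases) under the WT label and 46.8% ± 4.35 under the HuR KO label (exact permutation p = 0.0714, two-sided, and 0.143 after adjustment over the 2 genes). With 1 library left out the difference of −6.84 percentage points ranged from −9.84 to −4.32, the latter without A7. The libraries with the highest shares were A7 at 58.7%, A12 at 54.6% and A26 at 53.7%, the same 3 in which short transcripts were low throughout. Atp5c1, the rotating stalk of complex V, had 64.6% ± 3.42 and 66.4% ± 2.59 on its main transcript (exact permutation p = 0.429, two-sided).

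Around the subunits, 1 gene passed the threshold. Of 48 assembly factors, which insert cofactors and join the subunits, 47 were tested, and 0 were higher and 1 lower past the threshold, against 0.707% of all genes in either direction. Lyrm7, the chaperone that holds the Rieske protein Uqcrfs1 before its insertion into complex III (chr11:54826866-54860916, minus strand), stood at 17.5, 19.3 and 17.1 CPM under the WT label, and at 6.94, 5.41, 7.39, 8.81 and 6.95 under the HuR KO label. It was lower in each library labelled HuR KO than in any labelled WT, including A24 and A25 with few counts and A31 with muscle RNA. The log2 fold change was −1.34 (standard error 0.168, edgeR adjusted p = 0.0135). In edgeR's test the adjusted p was 0.0528 without A7, 0.0552 without A26, 0.0660 without A24 and A25, 0.0929 with the muscle covariate and 0.212 without A7, A8 and A31, whereas the log2 fold change stayed between −1.57 and −1.11 over all alternatives. Its client Uqcrfs1 was not lower, at 707 ± 216 CPM and 853 ± 181 CPM. The 47 factors had a median log2 fold change of 0.05, and their libraries did not overlap for 5 of them (10.6%), against 11.5% of all genes.

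Of 7 further nuclear genes of the chain outside the symbol pattern, 6 were tested, with 0 past the threshold (0.707% of all genes) and 0 at an unadjusted p under 0.05 (17.0% of all genes, edgeR). Cox4i1, the main form of subunit 4, stood at 1189 ± 446 CPM and 1378 ± 269 CPM, highest in A24 and A8. Cycs, the cytochrome c between complexes III and IV, had a log2 fold change of −0.49 (edgeR adjusted p = 0.400), with 542 ± 176 CPM and 385 ± 108 CPM. Its log2 fold change ranged from −0.70 to −0.22 with 1 library left out. Of the 13 mitochondrially encoded subunits 12 had negative values, with a median of −0.36 beside 0.07 for the nuclear ones. Past the threshold were 0 of 13 (0.707% of all genes), with 1 at an unadjusted p under 0.05 in edgeR's test (17.0% of all genes). This gene, mt-Atp8, stood at 5647 ± 2927 CPM and 1704 ± 804 CPM, with overlapping libraries (log2 fold change −1.73, edgeR adjusted p = 0.0978). Mitochondrially encoded genes took 17.3% of all counts in A7, 33.1% in A8 and 27.2% in A12. Under the HuR KO label they took 21.6%, 14.3%, 25.6%, 26.5% and 22.5%, so that the groups overlapped. The count of 12 and the median of −0.36 were not recomputed with libraries left out, so how far they rest on A8 was not tested.

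Promoters of the family were searched for known motifs, without a test. RefSeq promoter windows (250 bases before to 50 after the gene start, GRCm38.p6) were matched for 70 of the 84 genes and for 11278 of the genes tested. On either strand, the NRF1 motif GCATGCGC was in 14.3% of the family (10 genes) and 5.49% of all, the YY1 motif AAGATGGCG in 11.4% (8 genes) and 3.21%, the ETS motif CCGGAAG in 22.9% (16 genes) and 18.4%, and CCAAT in 44.3% and 42.8%. The letters of NRF1 overlap their own reverse complement, so that a palindromic site counts once a gene. Genes with and without NRF1 had median log2 fold changes of 0.14 and 0.06, and for YY1 0.01 and 0.07, and neither pair was tested. NRF1 and ETS motifs fell within 80 bases of each other in Atp5k, Atp5l, Sdhb and Uqcr11, and 80 bases of Atp5k, Sdhb and Uqcr11, of 3 complexes, are given with the motif letters in capitals. They are at chr5:108434375-108434454 (minus strand), chr4:140961211-140961290 (plus strand) and chr10:80406813-80406892 (minus strand), from RefSeq on GRCm38.p6.
Atp5k: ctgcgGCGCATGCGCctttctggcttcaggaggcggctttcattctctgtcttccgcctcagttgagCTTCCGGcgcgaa
Sdhb: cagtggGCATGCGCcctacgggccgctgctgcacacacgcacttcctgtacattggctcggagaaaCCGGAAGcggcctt
Uqcr11: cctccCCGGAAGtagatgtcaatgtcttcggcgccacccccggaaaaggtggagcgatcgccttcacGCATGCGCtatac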

How the data were processed

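Per the study's methods, poly(A) libraries of BAT RNA were sequenced and mapped with CLC Genomics Workbench. The authors deposited an estimated count per transcript for each of 8 libraries, not normalized. The program that wrote these counts, and whether it used strand, are not given in the sources used here. GENCODE M21, which holds 103635 of the 105129 transcripts (99505 under the same version), was used for positions, lengths and transcript types on GRCm38.

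Counts were summed by gene symbol, rounded and tested with edgeR 4.0.16 (filterByExpr, TMM, quasi-likelihood F test) in R 4.3.3, with Benjamini-Hochberg adjustment over 14851 genes. The standard error is the size of the log2 fold change over the square root of F. Ratios between paralogs (0.5 added to each count) and transcript shares were tested by exact permutation, two-sided, over all 56 splits. Benjamini-Hochberg adjustment was made over the ratios and, separately, over the transcript shares. TPM, shares and ratios were computed here from the deposited estimated counts, with numpy 2.4.6, pandas 2.3.3 and scipy 1.17.1 under Python 3.11.15 (figures: matplotlib 3.10.9). Transcript length is the mean over a gene's transcripts weighted by count.

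Totals ranged from 17558090 to 67498055 counts, and a count of 0 allows up to 3 counts. Such limits cover counting error only. p-values measure the spread between these libraries, which are taken as separate animals from their titles.

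Genes named are members past the threshold, the largest rise and fall in each complex, central subunits, the paralogs compared, members that did not pass the filter, and, from the other lists, genes past the threshold with Cox4i1 and Cycs. Atp5s, Atp5l, Cox7c, mt-Atp8, the copies Gm10175, Gm10221 and Gm12338, and genes named for their TPM or their promoter were chosen after their values were seen. The members and lists were chosen with earlier results of these data known. The alternatives were DESeq2's size factors, library totals, DESeq2 1.42.0, limma 3.58.1 voom weighted by library quality, every gene with a count, only genes with 10 counts or more throughout, the transcript with the highest count, a contractile gene score as a covariate, removal of the trend on GC content (loess, span 0.3), and omission of libraries. Removal of the trend on transcript length, omission of A8 and A24, the sum with Gm10175 and the length classes were chosen after seeing the data. A list of copies took genes with at least 20% of a member's 31-base stretches and 1 CPM. Protein and physiology were not analysed here.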

Additional observations from a re-analysis of the deposited data

Results flagged for a closer look

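In the 5 libraries labelled HuR KO, 5 of 55 quantities had 1 library far from the other 4, where chance gives about 1 in 20. Many of the 55 rise and fall together by library, so they are not independent and the count cannot be set against that rate. In 4 of the 5 flagged quantities A24 was the highest library: Atp5g2 with 26.4 CPM (12.2 to 15.1 in the others), Cox7a2 with 547 CPM (345 to 402), Cox6b1 with 1419 CPM (810 to 954) and Ndufa4 with 868 CPM (514 to 580). A24 is 1 of the 2 smallest libraries and was among those in which genes with short transcripts were high, and the part of either in these values was not tested. Cox6a2, the muscle form, stood at 1.59 CPM in A31 and at most 0.0593 CPM in the other 4, and A31 also had the most contractile RNA of these 5 libraries.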

How the results depend on the processing

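Under the alternatives that keep all libraries with edgeR's test, the number of subunit genes past the threshold was 0, except for 1 with the trend on transcript length removed. It was 2 in DESeq2's Wald test and 2 in limma voom, 1 without A8 and A24, and 0 to 1 with 1 library left out. The 105 calls among all genes became 818 in DESeq2's Wald test, 16 with the transcript of highest count, 15 with the muscle covariate, 57 with the GC trend removed, 331 with the length trend removed, 5 without A24 and A25, 4 without A7, A8 and A31, 202 without A8 and A24, and 10 to 190 with 1 library left out. The members' median log2 fold change lay between −0.11 and 0.41. Its moves were smaller than the SD of single libraries within the labels (0.374), which is not the error of a difference between groups. Medians of single complexes moved by more than their own SD. Without A8 they were 0.36 in complex II, 0.52 in IV and 0.35 in V. Without A7, A8 and A31 they were 0.35, 0.52 and 0.39, and with library totals that of complex II was 0.35. Of 32 genes named and tested, 14 kept their direction in all 21 alternatives. Log2 fold changes turned sign with library totals (Sdha 0.20, Uqcrh 0.015, Atp5a1 0.20, Atp5b 0.20, Cox7a2 0.21, Cox8b 0.24, Cox6b1 0.27, Ndufa4 0.11), in limma voom (Cox7a2 0.034, Cox8b 0.16, Cox6b1 0.082) and with the transcript of highest count (Cox6b1 0.0016). They turned with the muscle covariate (Cox6a2 0.51, Cox8b 0.10, Cox6b1 0.047), the length trend removed (Sdhb −0.0015) and the GC trend removed (Sdha 0.039, Ndufv1 −0.059, Sdhb −0.072, Cox6a1 −0.079, Cox7a1 −0.052, Cox4i1 −0.0031). They turned without A24 and A25 (Sdhd −0.011, Ndufv1 −0.093, Sdhb −0.073, Cox6a1 −0.11, Cox7a1 −0.064, Cox8a −0.0045), without A7, A8 and A31 (Uqcrh 0.091, Atp5g1 0.48, Cox5b 0.12, Atp5a1 0.090, Cox7a2 0.13, Cox8b 0.34, Cox6b1 0.23) and without A8 and A24 (Uqcrh 0.074, Cox7a2 0.15, Cox8b 0.34, Cox6b1 0.18, Ndufa4 0.028). With 1 library left out, values crossed 0, from −0.076 to 0.027 for Sdha, −0.47 to 0.17 for Uqcrh, −0.14 to 0.41 for Sdhb, −0.50 to 0.11 for Cox5b, −0.084 to 0.034 for Atp5a1, −0.12 to 0.026 for Atp5b, −0.18 to 0.61 for Cox7a1, −0.28 to 0.28 for Cox7a2, −0.33 to 0.51 for Cox8b, −0.20 to 0.35 for Cox6b1 and −0.41 to 0.20 for Ndufa4. Cox6a2 could not be tested with at least 10 counts in every library, without A31 or without A7, A8 and A31. The ratio of Cox6a2 to Cox6a1 turned to 0.79 without A7, A8 and A31, where both groups were near the floor. The difference in the Atp5c1 share ranged from −0.15 to 2.98 percentage points with 1 library left out. Without A7, A8 and A31 only A12 is left under the WT label, and it is assumed to vary like the other group. The cause of these turns was not tested. No paired analysis was possible because the libraries of the 2 labels share no number. With 1 library left out the exact test cannot go below 0.0571 or 0.0952, so its p says nothing of stability there.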
